A study of Mus musculus with 21 samples.

Results

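Binding of the glucocorticoid receptor (GR) to liver chromatin was compared between C57BL/6J mice kept for 6 h at 7% oxygen (6 h hypoxia) and mice kept in normal air at 21% oxygen (normoxia), all injected with phosphate-buffered saline (PBS) in place of a drug and sampled 2 h after the injection. Each group had 3 libraries, biological replicates by the design text deposited with the study, so 6 of the 18 GR libraries of the study entered the comparison. The other 12 came from mice after 24 h at 7% oxygen or from mice given 10 mg/kg of the synthetic glucocorticoid dexamethasone (DEX). The mice carried no engineered allele according to the labels, and their sex and age are not given in the sources used here. The assay was ChIP-seq, which sequences the DNA fragments that an antibody against GR pulls down from crosslinked whole liver, so the cell type in which GR sat at a site is not resolved. The hepatocyte, Kupffer cell and other marker lists could not be used to check the tissue, because peak lists hold no RNA level.

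GR is a nuclear receptor that rests in the cytoplasm with chaperones until it holds a glucocorticoid, and then enters the nucleus and binds DNA. Its classical element is a palindrome of AGAACA and TGTTCT half-sites with a short spacer, and it also binds through single half-sites and through other factors. In liver it is known for switching on genes of gluconeogenesis, amino acid breakdown, the circadian clock and anti-inflammatory control. PBS-injected mice have only their own corticosterone, so these 6 libraries show GR under endogenous hormone, and the question of the comparison is whether 6 h of hypoxia changes where and how strongly it binds.

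Where peaks of the 6 lists shared 1 bp or more they were joined into 1 site. The lists held 4417 sites, of 7398 in the 18 lists together. A site's level is the authors' normalized tag count, the tags under the peak per 10000000 tags of the library. A site without a peak in a list has no deposited value there. The caller asked for at least 50 tags, which is 11.5 to 57.7 normalized tags depending on depth, so an absent peak means a level under that minimum or a failed test against input or surroundings, not a level of 0.

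Library quality moved with the groups in part. Normoxia replicate 1 stood apart: it had 43645787 tags, against 8667179 to 16500568 in the other 5 libraries, a peak size of 280 bp against 187 to 194 bp, and a median fold of its peaks over input of 7.30 against 28.8 to 80.5. It was also counted with a maximum of 2 tags per bp, against 1 in the other 5 libraries. It held 3494 of the 4417 sites alone. Of those, 70.5% lay within 1 kb of an end of a protein-coding gene and 7.50% were in any of the 9 DEX lists, against 7.76% and 100% of the sites found in all 6 lists. Without this library 924 sites remained. The tests are therefore given with it and without it, and the changes at the sites described most closely likewise. Each oxygen condition also had its own input, so the input and the oxygen condition cannot be told apart.

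The number of peaks did not differ beyond the spread between libraries. After 6 h of hypoxia replicates 1, 2 and 3 had 230, 751 and 622 peaks, and in normoxia they had 3915, 145 and 343. The mean log2 number differed by -0.29 after 6 h (6 h minus normoxia, exact two-sided permutation test, p = 0.9, where 3 against 3 libraries allow no p below 0.1), and without normoxia replicate 1 by 1.09 (exact permutation p = 0.3). The groups overlapped either way, since 6 h replicate 1 lay under normoxia replicate 3. At 1 common minimum of 57.7 normalized tags the lists held 118, 747 and 327 peaks after 6 h and 44, 145 and 174 in normoxia, a difference of 1.57 in log2 (exact permutation p = 0.3).

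The share of a library's tags that lay in peaks was 0.240%, 1.23% and 0.624% after 6 h and 0.684%, 0.211% and 0.349% in normoxia. The mean share was 0.283 percentage points higher after 6 h (exact permutation p = 0.6), and 0.418 points higher without normoxia replicate 1 (exact permutation p = 0.4). Without 6 h replicate 2 it was 0.0173 points (exact permutation p = 0.9), and leaving out any of the 6 libraries in turn gave at most 0.512. At the 116 sites found in all 6 lists the median level was 70.2, 263.6 and 153.9 normalized tags after 6 h and 39.7, 111.4 and 101.8 in normoxia. This difference of 0.89 in mean log2 median (exact permutation p = 0.4) was 0.41 without normoxia replicate 1 (exact permutation p = 0.7). It was examined after the data were seen. Replicate 2 after 6 h was highest of the 6 libraries at 112 of the 116 sites, and normoxia replicate 1 was lowest at 108.

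**Figure D1:**
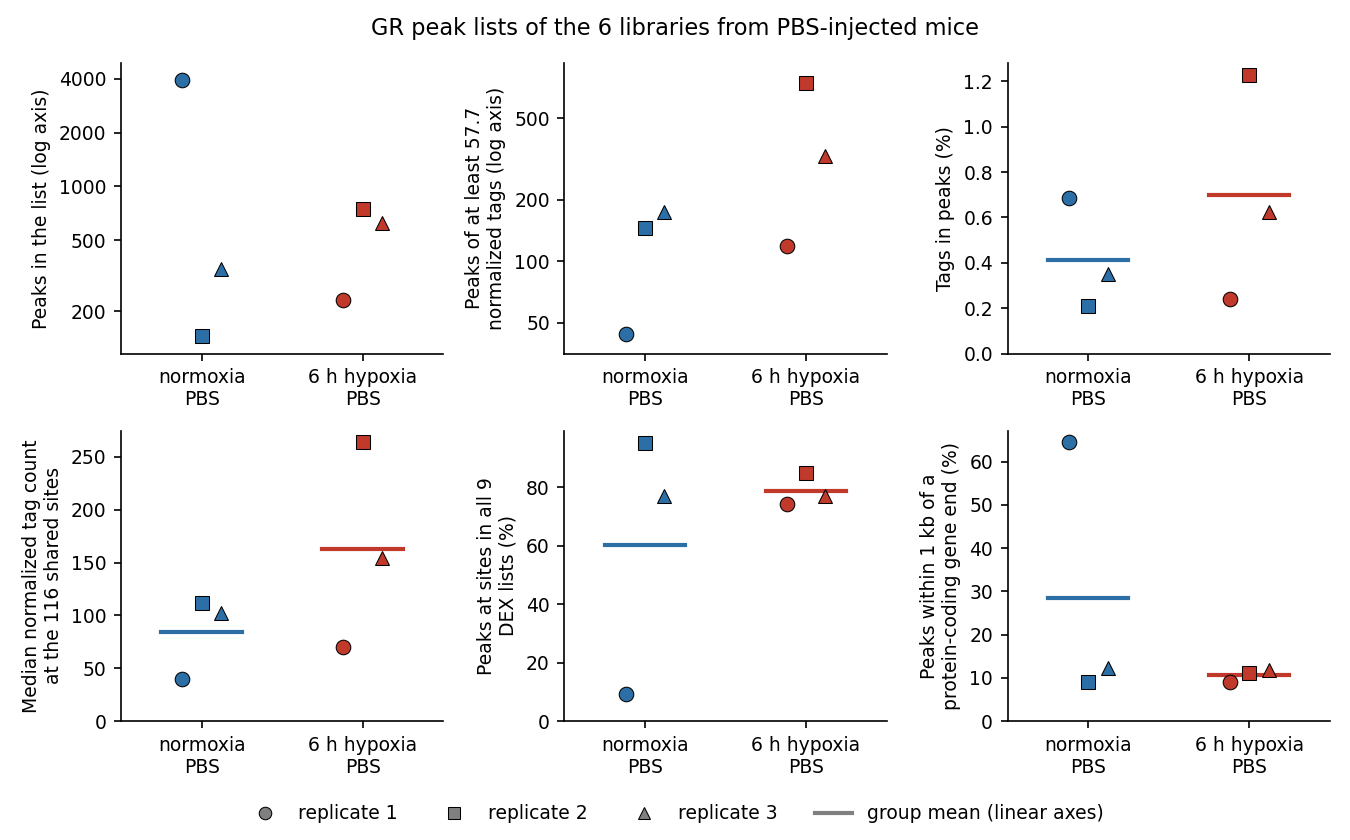
Each panel plots 1 value per library for normoxia PBS (blue) and 6 h hypoxia PBS (red), with symbols for replicates and lines for group means on the linear axes; the first and second panels have log axes. The groups overlap in every panel, and normoxia replicate 1 (blue circle) has the most peaks (3915) but the fewest above the common minimum of 57.7 normalized tags (44).

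The kind of sites stood apart in normoxia replicate 1. A difference between groups could not be settled, since 3 against 3 libraries allow no exact permutation p below 0.1. Peaks at sites found in all 9 DEX lists made up 74.3%, 84.8% and 77.0% of the lists after 6 h, and 9.22%, 95.2% and 77.0% in normoxia. The mean share was 18.3 percentage points higher after 6 h (exact permutation p = 0.8), but without normoxia replicate 1 the difference was -7.34 points (exact permutation p = 0.6). The share of peaks within 1 kb of a gene end was 9.13%, 11.1% and 11.7% after 6 h, and 64.4%, 8.97% and 12.2% in normoxia. That difference was -17.9 points with all 6 libraries (exact permutation p = 0.5) and 0.034 points without normoxia replicate 1 (exact permutation p = 1.0). Apart from that library, all 5 lists therefore had 8.97% to 12.2% of their peaks near gene ends.

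These 4 promoters show sites of the comparison at the start of a gene, and their sequences are given because they are the protein-coding genes with at least 100 bases before the start of transcription inside a site found in all 3 lists after 6 h. The stretch shown is the part of the site before the start, 5′ to 3′ on the gene's strand (RefSeq, GRCm38.p6, the assembly behind mm10), and capitals mark a GR half-site.
Slc10a6, chr5:103629464-103629653, minus strand: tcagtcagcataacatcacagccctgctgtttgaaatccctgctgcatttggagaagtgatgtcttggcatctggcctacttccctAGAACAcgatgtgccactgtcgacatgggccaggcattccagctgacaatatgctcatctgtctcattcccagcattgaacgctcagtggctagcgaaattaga
Abhd15, chr11:77514867-77514974, plus strand: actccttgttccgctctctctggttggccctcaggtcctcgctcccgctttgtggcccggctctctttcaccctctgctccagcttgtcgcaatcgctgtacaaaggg
Map3k6, chr4:133240568-133240748, plus strand: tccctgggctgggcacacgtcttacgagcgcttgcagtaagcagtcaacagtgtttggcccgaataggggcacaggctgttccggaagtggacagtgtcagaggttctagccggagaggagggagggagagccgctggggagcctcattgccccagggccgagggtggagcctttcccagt
Ndrg2, chr14:51914089-51914254, minus strand: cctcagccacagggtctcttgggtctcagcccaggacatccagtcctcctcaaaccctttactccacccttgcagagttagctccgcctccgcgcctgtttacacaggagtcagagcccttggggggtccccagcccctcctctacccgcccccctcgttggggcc

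Slc10a6 encodes a carrier of sulfated steroids, and its promoter site had 39.6, 123.9 and 57.7 normalized tags after 6 h and no peak in any normoxia list. The Abhd15 site, which also overlaps the neighbouring Trp53i13, had 40.2, 126.2 and 67.6 after 6 h and likewise no normoxia peak. At Map3k6, a stress-activated kinase gene, the site had 45.3, 203.9 and 112.9 after 6 h and 38.8 in normoxia replicate 3 alone. At Ndrg2 it had 40.2, 68.7 and 67.0 after 6 h, and 29.1 and 58.8 in normoxia replicates 1 and 3. All 4 sites were in all 9 DEX lists. The motif AGAACA or TGTTCT, searched on both strands, stood in 1 of the 8 promoter windows of 300 bases that overlap a site found in all 3 lists after 6 h, in 9 of the 36 (25.0%) that overlap a site found in at least 2 of them, and in 19.0% of all 32851 windows. The full element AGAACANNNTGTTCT stood in none of the 36 windows and in 3 of all windows. A match here is a description of the letters and not evidence of a bound element.

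Detection was compared at the sites found in at least 2 lists. Of the 625 sites found in at least 2 of the 6 lists, 315 were in more lists after 6 h (50.4%), 63 in more normoxia lists and 247 in equally many. Sites in 2 or 3 lists after 6 h and in no normoxia list numbered 152, and 15 were in 2 or 3 normoxia lists and in none after 6 h. Fisher's exact test per site with Benjamini-Hochberg adjustment called 0 of the 625 (0%), and 0 had an unadjusted p under 0.05, since 3 against 3 lists cannot go below 0.1. In all, 16 of 625 sites (2.56%) were in all 3 lists after 6 h and in no normoxia list, and 1 (0.16%) was the other way round. Without normoxia replicate 1 these were 22 and 1 of 549 (4.01% and 0.182%), and 367 sites (66.8%) were in a larger share of the 6 h lists. With the common minimum of 57.7 normalized tags they were 9 and 0 of 339 (2.65% and 0%), and 74.3% of sites were in more 6 h lists. When each list was held to its 145 highest peaks they were 6 and 4 of 190 (3.16% and 2.11%), and 48 sites (25.3%) were then in more 6 h lists and 62 in more normoxia lists. Leaving out 6 h replicate 1, the sparsest list of that group, raised the 16 to 143, and leaving out normoxia replicate 2, the sparsest of the other, raised the 1 to 15.

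**Figure D2:**
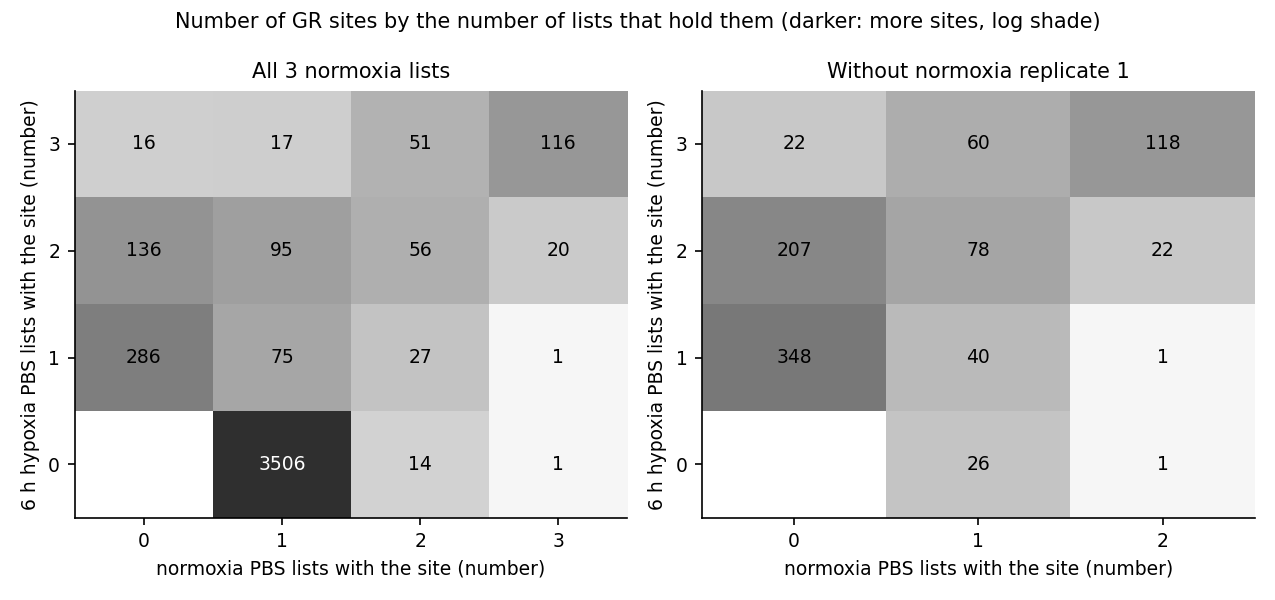
Number of sites by how many 6 h hypoxia PBS lists (vertical) and normoxia PBS lists (horizontal) hold them, with all 3 normoxia lists on the left and without replicate 1 on the right; shade follows the log of the number, and the cell for no list is empty. The upper left cells hold the 16 and 22 sites in every 6 h list and no normoxia list, and the lower right cells hold 1 site each.

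Of the 16, 11 were in all 9 DEX lists and had a fold over input of 14.4 to 612, a grouping made after the values were seen. The highest on average lay inside Hif3a, a gene of the hypoxia-inducible factor family on the list of classical glucocorticoid-induced genes, at chr7:17058230-17058434. It had 42.8, 476.5 and 132.7 normalized tags after 6 h. A site 0.582 kb from Ciart, a repressor of the circadian clock, had 41.5, 278.3 and 140.8. A site 8.70 kb from Gm51791 had 61.9, 309.8 and 109.8. In each of these 3, replicate 2 was highest and replicate 1 lowest, in the order of the libraries' median levels.

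The site 14.1 kb from Dysf, which encodes the membrane-repair protein dysferlin, had 60.7, 216.3 and 127.2. The site inside Parva, which encodes the adhesion protein alpha-parvin, had 46.0, 259.1 and 37.8 (chr7:112469938-112470190). Arl4a (16.3 kb away) had 36.4, 162.2 and 66.4. Gata6 (59.4 kb), a transcription factor gene, had 37.0, 116.0 and 57.1, and Myom1 had 42.8, 101.4 and 62.7 inside the gene. Usp2, a deubiquitinase gene of the clock system, had 39.6, 72.1 and 58.3. Together with Slc10a6 and Trp53i13 above these are the 11. Usp2 is outside the 15 highest by mean level and is named so that each site is accounted for. Replicate 2 after 6 h was highest at all 11 sites, and its list had the highest median fold over input (80.5).

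The other 5 of the 16 were in 1 to 3 DEX lists and had a fold over input of 4.01 to 7.11, near the 4-fold the caller asked for. They lay 12.4 kb from Ifngr2 (130.9, 148.7 and 213.4 normalized tags after 6 h), 10.9 kb from Apbb1ip (74.7, 87.9 and 119.7), inside Znhit1 (69.0, 116.0 and 95.5) and at a pair of places on the unplaced scaffold JH584304.1 (117.5, 110.4 and 152.0, and 89.4, 89.0 and 107.3). Here replicate 2 was highest at 1 of 5 sites, and the levels were closer together than at the 11. The part that the separate inputs have in these 5 calls was not tested. The site found in normoxia only lay 72.5 kb from Ly6l, at chr15:75376789-75377069, with 20.6, 81.9 and 60.6 normalized tags, and it was in all 9 DEX lists.

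DEX-injected mice offer the same oxygen contrast in 6 other libraries, which share only the inputs with the PBS libraries. The 11 sites had been grouped by their peaks in all 9 DEX lists, so their occupancy in normoxia with DEX follows from that choice. Their mean levels there were 75.9 to 597 normalized tags. The other 5 sites were in at most 1 normoxia DEX list each. At Parva the level rose from 88.0 ± 19.9 in normoxia with DEX to 242.5 ± 93.9 after 6 h with DEX (SD, n = 3 libraries each), a log2 change of 1.41 ± 0.19 (SE, limma, adjusted p = 0.00216 over 1116 sites). This fit called 6 sites higher (0.538%) and 10 lower (0.896%). Of the 11 sites it called the Parva site alone, and the nearest to it was Dysf with 0.77 ± 0.19 (limma, adjusted p = 0.0767). At Hif3a the log2 change with DEX was 0.23 ± 0.23 and at Ciart 0.47 ± 0.23 (limma, adjusted p = 0.796 and 0.426).

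The 6 sites that rose after 6 h with DEX were also looked up in the 6 PBS lists, a description added after the data were seen. None of the 6 was in a normoxia PBS list, and 5 were in at least 1 list after 6 h. Of all 1116 sites tested with DEX, 355 (31.8%) were in at least 1 list after 6 h and no normoxia PBS list, 197 (17.7%) of them in 6 h replicate 2 alone, and 327 (29.3%) were in no PBS list. Besides Parva, the site 2.69 kb from Bdh1, the gene of the ketone body enzyme 3-hydroxybutyrate dehydrogenase, had 224.2 and 44.7 normalized tags in 6 h replicates 2 and 3. Those at Gadd45b, Tubd1 and Gne had a peak in 6 h replicate 2 only (67.6, 141.9 and 72.1), and that at Rragc had none. Of the 10 that fell with DEX, 8 were in no PBS list, 1 (Dpp9) was in 6 h replicate 2 with 64.2, and 1 (Tpst2) was in normoxia replicates 1 and 3 with 26.3 and 42.4. These few peaks carry no test.

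At the 116 sites shared by all 6 lists, levels were compared after each library's log2 levels were centred on their median, so that a value shows a site against the other sites of its library. Limma called 0 of the 116 higher and 0 lower (0% each), with 16 at an unadjusted p under 0.05 (10 higher, 6 lower) and a smallest adjusted p of 0.130. EdgeR, run on tag numbers recovered from the normalized counts, called 1. Without normoxia replicate 1 limma called 0 of 118 (0% each way), with 11 at an unadjusted p under 0.05 and a smallest adjusted p of 0.245. The centred changes ran from -1.26 to 1.32 with a median of -0.10, and 92 of 116 lay within 0.5 of 0. The median 95% interval was ± 0.57 in log2, and ± 0.65 without normoxia replicate 1. These intervals are not adjusted for the number of sites and are no limit of detection, since changes of up to 1.32 were not called. All 6 h libraries lay above all normoxia libraries at 12 sites (10.3%) and below at 9 (7.76%) after centring. Without centring these were 7 (6.03%) and 0 (0%), and the median change was 0.78, with 113 of the 116 sites higher after 6 h. Without centring and without normoxia replicate 1 the median change was 0.35, and 0 of 118 sites had an unadjusted p under 0.05 (limma, smallest adjusted p = 0.980).

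The site with the highest change lay 19.7 kb from AA986860, at chr1:130764206-130764486. Its levels were 98.3, 416.8 and 288.4 normalized tags after 6 h and 12.6, 108.5 and 87.3 in normoxia. The centred log2 change was 1.32 ± 0.40 (SE, limma, adjusted p = 0.185), and 0.82 without normoxia replicate 1, where that library was lowest by far.

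Mycl, which encodes a member of the MYC family of transcription factors, had a site 15.6 kb away with the narrowest spread among the highest changes. Its levels were 76.0, 306.4 and 195.4 after 6 h and 23.8, 75.0 and 53.3 in normoxia, and after centring the 6 h libraries lay within a tight band above the normoxia ones. The log2 change was 0.97 ± 0.21 (limma, adjusted p = 0.130) and 0.98 without normoxia replicate 1 (limma, adjusted p = 0.245). It passed the threshold in edgeR (adjusted p = 0.0282), with a mean-variance trend (limma, adjusted p = 0.0493), with library weights (limma, adjusted p = 0.0243) and in a fit with the 24 h PBS libraries (limma, adjusted p = 0.0364). It also passed without 6 h replicate 1 (limma, adjusted p = 0.0421) and with peaks of at least 10-fold over input (limma, adjusted p = 0.0153). It did not pass under edgeR without normoxia replicate 1, where the smallest adjusted p was 0.168. Nor did any site pass in limma without 6 h replicate 2 or 3 or normoxia replicate 2 or 3 (smallest adjusted p of 0.220 to 0.460). With the replicate block the smallest was 0.0617 (limma).

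Sites on chromosome 17 and chromosome 11 made up most of the other high changes. Mapk13, a stress-activated p38 kinase gene, had a site 8.13 kb away with 89.4, 367.2 and 140.2 after 6 h and 30.5, 58.8 and 60.6 in normoxia, a log2 change of 0.91 ± 0.25 (limma, adjusted p = 0.130) that was 1.07 without normoxia replicate 1. Fkbp5, a chaperone gene and a standard marker of GR activity, had a site 26.8 kb away, nearest to Armc12, at chr17:28512744-28513054. It had 65.1, 708.6 and 285.3 after 6 h and 29.3, 110.8 and 80.0 in normoxia, a log2 change of 1.00 ± 0.37 (limma, adjusted p = 0.272) that was 0.92 without normoxia replicate 1. Replicate 1 lay under both normoxia replicates 2 and 3 before centring at this site. A further shared site, 32.0 kb from Fkbp5, had 291.2, 708.6 and 573.2 after 6 h and 94.9, 291.9 and 369.7 in normoxia. The groups overlapped there, and it was not among the highest changes. Below, Fkbp5 stands for the site 26.8 kb away.

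Plin4, which encodes a lipid droplet coat protein, had 74.1, 990.2 and 469.6 after 6 h at a site inside the gene, and 36.2, 148.8 and 126.7 in normoxia. The log2 change was 1.00 ± 0.44 (limma, adjusted p = 0.346), and 0.84 without normoxia replicate 1. Without 6 h replicate 1 limma called 3 sites higher, Plin4 (1.58), Fkbp5 (1.44) and Mycl (1.05), and 1 lower at Nedd4l (-1.27), the first of its sites, with adjusted p of 0.0223 to 0.0421. The calls at Plin4 and Fkbp5 thus rested on leaving out the 6 h library with the lowest levels.

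A pair of sites on chromosome 11, 15.4 kb from Jade2 and 51.4 kb from Cdkn2aipnl, had log2 changes of 0.93 ± 0.26 and 0.76 ± 0.28 (limma, adjusted p = 0.130 and 0.272), which were 0.77 and 0.86 without normoxia replicate 1. The Jade2 site had 83.7, 290.6 and 214.6 after 6 h and 20.2, 65.8 and 89.7 in normoxia. The Cdkn2aipnl site had 112.4, 452.9 and 258.0 after 6 h and 44.2, 72.7 and 132.1 in normoxia. Zbtb16, which encodes the transcription factor PLZF and is strongly induced by glucocorticoids, had its highest change at chr9:48723725-48724005 inside the gene, with 48.5, 899.0 and 313.9 after 6 h and 16.7, 167.3 and 83.0 in normoxia. That change was 1.07 ± 0.61 (limma, adjusted p = 0.487) and 0.62 without normoxia replicate 1, and the 2 groups overlapped. Other shared sites inside Zbtb16 had changes of -0.45, -0.18 and 0.11.

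**Figure D3:**
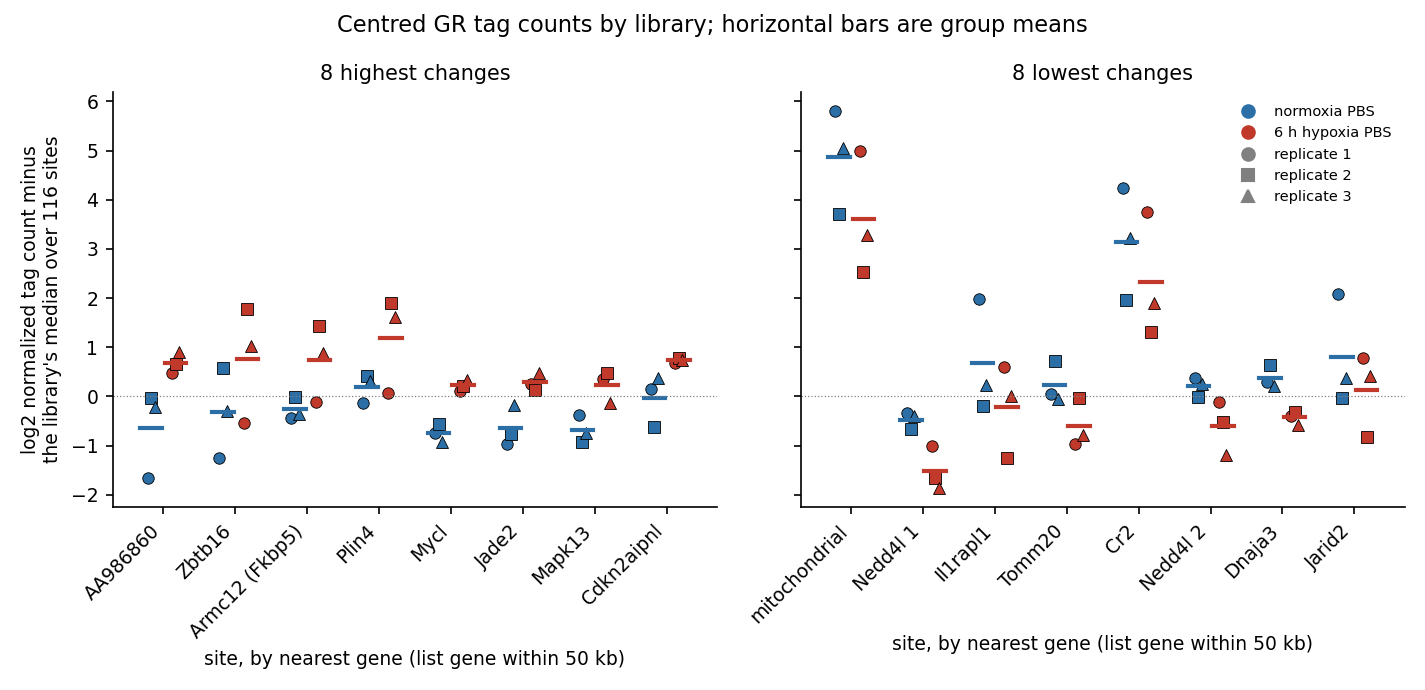
Log2 normalized tag count of each library minus that library's median over the 116 shared sites, for the 8 highest (left) and 8 lowest (right) changes; blue is normoxia PBS, red is 6 h hypoxia PBS, symbols are replicates and bars are group means. The 6 h points at Mycl and the first Nedd4l site lie apart from the normoxia points, while those at Zbtb16 and the mitochondrial site overlap them.

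Among the lowest changes, a pair of sites near Nedd4l, a ubiquitin ligase gene known for control of sodium channels, had similar changes. The first, 4.99 kb from the gene at chr18:65222677-65222957, had 35.1, 83.4 and 42.2 after 6 h and 31.2, 70.4 and 77.0 in normoxia, a centred log2 change of -1.04 ± 0.27 (limma, adjusted p = 0.130). The other, 8.45 kb from the gene, had 65.1, 183.6 and 67.6 after 6 h and 51.6, 110.8 and 121.8 in normoxia, a change of -0.82 ± 0.29 (limma, adjusted p = 0.272). Without normoxia replicate 1 these changes were -0.97 and -0.72. Before centring the groups overlapped at both sites.

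Dnaja3, a mitochondrial chaperone gene, had 53.6, 212.9 and 103.6 after 6 h at a site inside the gene and 48.3, 174.2 and 118.8 in normoxia, a centred change of -0.81 ± 0.21 (limma, adjusted p = 0.130). A site 123 kb from Tomm20 had 35.8, 256.8 and 89.9 after 6 h and 41.0, 183.5 and 97.6 in normoxia, a centred change of -0.83 ± 0.31 (limma, adjusted p = 0.272). Without normoxia replicate 1 the Dnaja3 and Tomm20 changes were -0.85 and -0.92. Without centring the Dnaja3, Tomm20 and second Nedd4l changes were 0.081, 0.057 and 0.071, so these sites were lower after 6 h only relative to the other sites of each library.

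The remaining 4 of the 8 lowest changes were at sites whose highest fold over input in any library was under 15, the only 4 such sites of the 116, and the SE was 0.58 to 0.69. The mitochondrial site at MT:15464-15744 had 2242, 1528 and 1508 normalized tags after 6 h and 2223, 1468 and 3401 in normoxia, and was in 3 DEX lists. Its centred change, the lowest of the 116, was -1.26 ± 0.67 (limma, adjusted p = 0.473), and -0.78 without normoxia replicate 1. The sites at Cr2, Il1rapl1 and Jarid2 had fold values of 4.33 to 13.5 and were in 7, 5 and 4 DEX lists. Their changes of -0.82, -0.89 and -0.67 with all 6 libraries were -0.26, -0.23 and -0.03 without normoxia replicate 1 (limma, adjusted p of at least 0.614 for these 3 with all 6). In that library Il1rapl1 had 157.6 normalized tags and Jarid2 167.3, against medians of 39.7 at the 116 sites.

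**Figure D4:**
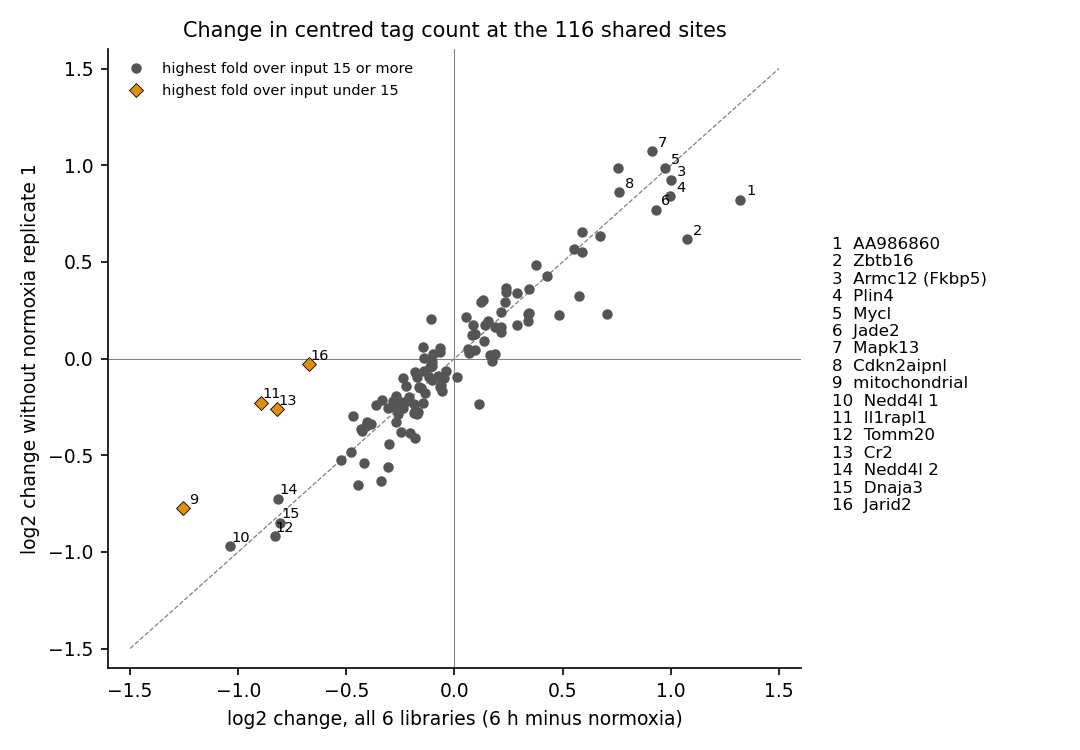
Centred log2 change (6 h minus normoxia) at the 116 shared sites with all 6 libraries (horizontal) and without normoxia replicate 1 (vertical), with the line of equal values dashed; numbers name the 8 highest and 8 lowest changes. The 4 sites with a fold over input under 15 (diamonds) lie furthest above the line, and AA986860 and Zbtb16 lie under it.

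The most occupied sites gave no call. Apart from the mitochondrial and Cr2 sites they were those 86.0 kb from Ptpn1, inside Klf13 and inside Adk. The Ptpn1 site had 924.7, 1959 and 1618 after 6 h and 126.0, 974.9 and 872.7 in normoxia, a centred change of 0.70 ± 0.41 that was 0.23 without normoxia replicate 1. Klf13, a transcription factor gene, had 673.8, 1619 and 1306 after 6 h and 296.5, 717.6 and 789.1 in normoxia, a change of 0.14 ± 0.23. Adk, the adenosine kinase gene, had 378.7, 830.3 and 633.9 after 6 h and 172.1, 567.7 and 473.9 in normoxia, a change of -0.19 ± 0.25. The 3 changes nearest 0 were at Tns1, Gm38664 and Hectd4 (-0.05, -0.04 and 0.01).

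Classical glucocorticoid-induced genes had the most sites of any list. Of its 26 genes, 23 had a site in at least 2 lists after 6 h and 17 in at least 2 normoxia lists, 12 of them in both normoxia replicates 2 and 3. For all sites the numbers of nearest genes were 417, 245 and 121, which leave out genes that are only within 50 kb, unlike the list's numbers. Of the list's 52 sites in at least 2 lists, 25 were in more 6 h lists, 25 in equally many and 2 in fewer. For all 625 sites these numbers were 315, 247 and 63. The 6 genes of the list with a site in at least 2 lists after 6 h but none in at least 2 normoxia lists were Cebpb, Dusp1, Gadd45b, Hif3a, Mt2 and Tat. Among the sites counted for them, 1 each at Gadd45b and Mt2 also had a peak in normoxia replicate 3, and 1 at Tat had one in normoxia replicate 1. The Cebpb sites were 85.1 and 87.1 kb from the gene. The list's 19 shared sites had a median centred change of 0.11, from -0.48 at Klf9 to 1.07 at Zbtb16, against -0.10 for all 116. None passed the test (0 higher, 0 lower). Tsc22d3, which encodes the anti-inflammatory protein GILZ, had 42.1, 72.1 and 51.5 after 6 h and 21.5 and 40.0 in normoxia replicates 1 and 3.

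Genes of gluconeogenesis and amino acid breakdown had sites in both groups. Of 20 genes, 10 had a site in at least 2 lists after 6 h and 9 in normoxia. Of the list's 21 sites in at least 2 lists, 10 were in more 6 h lists, 7 in equally many and 4 in fewer. For all 625 sites these numbers were 315, 247 and 63. Pck1, the gene of the rate-limiting enzyme of gluconeogenesis, had a site 0.378 kb away with 98.0 and 82.5 in 6 h replicates 2 and 3 and 26.8, 84.2 and 77.0 in normoxia. G6pc had 123.9 and 80.0 after 6 h and 23.1 and 52.1 in normoxia replicates 1 and 3. Tat, the tyrosine aminotransferase gene long used to study GR, had 4 sites, each with a peak in 6 h replicates 2 and 3. In normoxia 1 of the 4 had a peak, with 14.0 normalized tags in replicate 1. The list's 2 shared sites, 9.82 kb from Ass1 and 251 kb from Foxo1, had changes of -0.10 and 0.08.

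Of 25 genes of fatty acid oxidation and ketogenesis, 4 (Bdh1, Cpt1a, Lpin1, Plin5) had a site in at least 2 lists after 6 h and 1 (Lpin1) in normoxia. Cpt1a, the gate of mitochondrial fatty acid import, had 121.7 and 62.7 in 6 h replicates 2 and 3 and no normoxia peak. The list's 7 sites in at least 2 lists were in more 6 h lists at 5 and in equally many at 2, beside 315 and 247 of all 625, a small number of sites that carries no test. Lpin1, its 1 shared site, had 94.5, 423.6 and 173.7 after 6 h and 34.1, 198.4 and 80.0 in normoxia, a change of 0.34 ± 0.33 (limma, adjusted p = 0.683).

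Of 28 targets of hypoxia-inducible factors, 2 had a site in at least 2 lists after 6 h, Adm (13.4 kb away, inside Sbf2) and Bnip3 (9.83 kb), and 1 had one in normoxia, Ldha. Adm had 89.0 and 47.8 in 6 h replicates 2 and 3 and 17.4 in normoxia replicate 1. Bnip3 had 107.0 and 42.2 in the same 6 h libraries and 27.0 in normoxia replicate 1. The list had 4 sites in at least 2 lists and 0 shared sites, so no level was tested at these genes. Of the 4 sites, 2 were in more 6 h lists, 1 in equally many and 1 in fewer. For all 625 sites these numbers were 315, 247 and 63.

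Clock genes had sites in both groups. Per1, a core clock gene that GR switches on directly, had 297.6, 549.7 and 472.0 after 6 h and 132.4, 303.4 and 388.5 in normoxia at its shared site, a centred change of -0.12 ± 0.29 (limma, adjusted p = 0.827). The other shared site of the list, 12.9 kb from Tef, had a change of 0.21 ± 0.25. The list had 8 sites in at least 2 lists, 4 of them in more 6 h lists and 4 in equally many. For all 625 sites these numbers were 315 and 247.

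Acute phase and inflammation genes had 2 shared sites, at Zfp36 and Nfkbia, which encode inhibitors of inflammatory signalling, with changes of 0.06 ± 0.24 and 0.13 ± 0.26. Nfkbia had 53.0, 297.4 and 181.1 after 6 h and 45.4, 91.1 and 83.0 in normoxia, and the groups overlapped. Among liver transcription factors the shared sites at Foxp1, Hnf4a and Rxra had changes of 0.55 ± 0.22, 0.17 ± 0.29 and -0.27 ± 0.22 (limma, adjusted p = 0.280, 0.781 and 0.674). The xenobiotic receptor gene Nr1i2 had 40.9, 229.8 and 140.2 after 6 h and 45.4, 110.8 and 83.0 in normoxia, a change of -0.34 ± 0.25.

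Markers of hepatocytes had 7 sites in at least 2 lists, 3 of them shared, with a median change of 0.06. Of the 7 sites, 1 was in more 6 h lists, 4 in equally many and 2 in fewer. For all 625 sites these numbers were 315, 247 and 63. Markers of Kupffer cells and leukocytes and of stellate cells and cholangiocytes had 0 sites in at least 2 lists, and endothelial markers had 1, 33.8 kb from Clec4g and nearer to Cd209a, with 86.2, 98.0 and 127.8 after 6 h and 110.4 and 109.1 in normoxia replicates 1 and 3. No list's shared sites held a call.

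The 6 h change with PBS was set against that with DEX in 1 fit over 12 libraries with an interaction term. Of the 113 sites with a peak in all 12, limma called 0 with a larger and 0 with a smaller change under DEX (0% each), with 10 at an unadjusted p under 0.05 and a smallest adjusted p of 0.374. The median 95% interval of the difference was ± 0.61. Without normoxia PBS replicate 1 it called 0 of 115, with 13 at an unadjusted p under 0.05 and a smallest adjusted p of 0.283. At AA986860 the DEX change was 0.07 ± 0.16 beside 1.32 ± 0.40 with PBS, a difference of -1.32 ± 0.46 (limma, adjusted p = 0.374). At Mycl it was 0.36 ± 0.18 beside 0.97 ± 0.21, and at Nedd4l -0.36 ± 0.16 beside -1.04 ± 0.27, and neither passed the threshold with DEX (limma, adjusted p = 0.438 and 0.352). At Fkbp5 and Plin4 the DEX changes were 0.06 ± 0.19 and 0.12 ± 0.21 on levels of 1579 and 910 normalized tags in normoxia with DEX. Without 6 h PBS replicate 1 the difference passed at these 2 sites (-1.43 and -1.51, limma, adjusted p = 0.00716 each). The single PBS and DEX changes come from separate fits, over 116 and 1116 sites, each centred on its own sites. They therefore do not subtract exactly to the difference in the fit over 113 sites. The sites named here were picked by their PBS change, so smaller changes with DEX can follow in part from that choice.

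**Figure D5:**
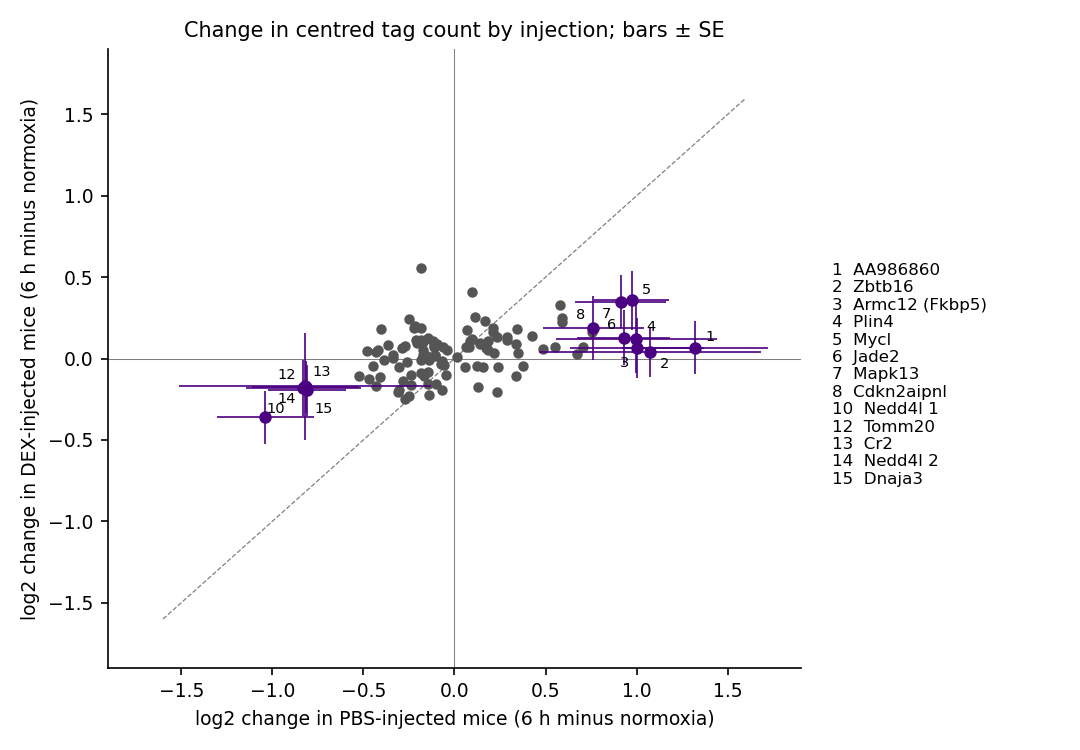
Centred log2 change (6 h minus normoxia) at the 113 sites with a peak in all 12 libraries, in PBS-injected (horizontal) and DEX-injected mice (vertical), with equal values dashed; numbered points are the sites of the highest and lowest PBS changes with bars of ± 1 SE. The numbered sites spread from -1.04 to 1.32 with PBS and from -0.36 to 0.36 with DEX. They were chosen by their PBS change, so a wider spread with PBS follows in part from the choice. Among the other sites Chrdl2 had 0.55 with DEX and -0.18 with PBS. The 2 changes come from separate fits, each centred on its own sites, so the dashed line is approximate.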

How the data were processed

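GR ChIP-seq libraries of mouse liver were grouped by their titles. Per the submitters' processing notes, the tools were Trimmomatic, BWA 0.7.17, SAMtools 1.10 and HOMER, and the build was mm10. HOMER (version not given in the sources used here) called peaks in each library alone against the input of its oxygen condition, per the file headers, with 4-fold over input and over surroundings. The deposited signal is the authors' normalized tag count per 10000000 tags. No peak had a deposited score under 50. The deposited ratio is the authors' fold over input. The authors' total tag column is named as a count of tags in 4 of the 6 lists and as scaled to the input in normoxia replicates 1 and 3. For edgeR, tag numbers were recovered from the normalized count and depth, which gave whole tags within rounding for 100% of values. They equalled the column for 79.6% of peaks in 6 h replicate 1. In 6 h replicates 2 and 3 and normoxia replicate 2 they equalled it for 100%.

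Overlapping peaks (1 bp) were merged, and the highest peak gave a site's level. Log2 levels, without pseudocount, were centred per library and fitted with limma 3.58.1 at sites in all libraries, with Benjamini-Hochberg adjustment and a threshold of 0.05. Fits were tested on simulated data. Genes came from a RefSeq table of GRCm38.p6, by the nearest span of 21896 protein-coding genes. A site counted for a list gene where that gene was the nearest, at any distance, or lay within 50 kb. Named sites were the 8 highest and 8 lowest changes, the 5 with the highest mean, the 3 nearest 0, the highest and lowest at each list's genes, the mitochondrial site and up to 15 found in 1 group. The members and lists were chosen with earlier results of these data known. Alternatives covered libraries, thresholds, scaling, test and pairing.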

Additional observations from a re-analysis of the deposited data

How the results depend on the processing

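With 3 libraries a group, depth and enrichment that differ more within groups than between them, and 116 shared sites, only large changes in tag count could be called. The detection test could not pass its threshold at this number of lists, so its 0 calls say nothing about stability. The log2 number of peaks, -0.29, ran from -1.29 to 1.09 when libraries were left out, was 1.57 at the common minimum and 0.95 there without normoxia replicate 1 (added after seeing the data, as are the other settings that combine a change with leaving out this library). The share of peaks at DEX sites ran from -7.34 to 35.6 points, and was -0.230 at equal list length and -8.06 at the common minimum without normoxia replicate 1. The share near gene ends ran from -27.7 to 0.034 points, and was 0.255 at the common minimum and 1.02 there without that library. The 16 sites in every 6 h list and no normoxia list became 17 to 143 when a library was left out, 9 at the common minimum and 6 at equal list length; the 1 the other way became 1 to 15, 0 and 4, and 2 at the common minimum without normoxia replicate 1.

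Leaving out libraries gave 0 to 3 sites with higher and 0 to 1 with lower tag counts, and 0 to 2 with a smaller change under DEX. A mean-variance trend and edgeR called 1 higher each, library weights 1 higher and 1 lower, and a fit with all 9 PBS libraries 2 higher and 1 lower. A filter on peaks of at least 10-fold over input, thought of after the low-fold sites were seen and changing the sites tested to 87, called 3 higher (Zbtb16, Mycl, Mapk13) and 1 lower (Nedd4l). The cause of these differences was not tested.

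None of the single sites that changed sign was called in either fit. Without centring Tomm20 was 0.057, Cr2 0.069, Nedd4l 0.071, Dnaja3 0.081, Jarid2 0.22, Klf9 0.41, Nr1i2 0.55, Rxra 0.62, Adk 0.70, Per1 0.77, Ass1 0.79, Tns1 0.84 and Gm38664 0.85. Without centring and normoxia replicate 1 Rxra was 0.075, Cr2 0.14, Adk 0.17, Il1rapl1 0.18, Nr1i2 0.19, Tns1 0.30, Per1 0.31, Gm38664 0.34, Ass1 0.36 and Jarid2 0.38. With edgeR Gm38664 was 0.012, Ass1 0.013 and Tns1 0.029, and without normoxia replicate 1 Ass1 0.046 and Jarid2 0.074. Library weights gave Ass1 0.072 and Hnf4a -0.0054, and all 9 PBS libraries Foxo1 -0.019, Zfp36 -0.039 and Hectd4 -0.088. Leaving out libraries gave Adk -0.43 to 0.016, Foxo1 -0.12 to 0.50, Gm38664 -0.11 to 0.036, Hectd4 -0.27 to 0.45, Ass1 -0.25 to 0.25, Per1 -0.35 to 0.15, Tns1 -0.13 to 0.090, Hnf4a -0.035 to 0.38 and Zfp36 -0.060 to 0.30.

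The replicate numbers gave deviations from group means that correlated at 0.41, 0.51 and 0.05 between same-numbered libraries, and every library correlated best with its own number. For 6 h replicate 3 the margin was small, at 0.055 with normoxia replicate 3 and 0.049 with normoxia replicate 2. As 1 same-numbered correlation was under 0.1 and the labels name no shared animal or day, the numbers were not used as pairs, and whether they mark pairs is not known. With the replicate block limma called 0 higher and 0 lower sites (22 at an unadjusted p under 0.05, smallest adjusted p 0.0617) and 0 in the DEX comparison (15, 0.0798). With the block the per-library differences of -0.29, 0.283, 18.3 and -17.9 had exact p of 1.0, 0.75, 0.75 and 0.75, where 0.25 is the smallest possible. The difference of 0.89 in mean log2 median level at the shared sites reached that smallest value (exact block permutation p = 0.25). It was examined after the data were seen.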
